A study of Mus musculus with 2 samples.

Results

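Long non-coding RNA genes, pseudogenes and small RNA genes supplied part of the promoters at which KLF4 peaks were called in liver portal fibroblasts. The peaks described here are those that the authors annotated as promoter, meaning no more than 3 kb from an annotated transcript start (TSS), and whose nearest gene had any biotype other than protein-coding. There were 325 such peaks, assigned to 308 genes. They made up 37.4% of the 868 promoter peaks (34.2% to 40.8% by the exact binomial method at 95%, a range that reflects counting error alone) and 7.71% of all 4216 peaks. In the whole list, 1856 of the 4216 peaks were assigned to protein-coding genes. Other biotypes thus held a larger part of the whole list than of its promoter peaks. By class, 152 peaks lay at long non-coding RNA (lncRNA) genes, 86 at pseudogenes, 57 at small RNA genes, 26 at loci of the TEC class, which are transcribed regions not yet proven to be genes, and 4 at T-cell receptor gene segments. The last class is counted as noncoding only because its biotype label is not protein-coding.

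The chromatin came from primary portal fibroblasts, a mesenchymal cell type that lies beside the bile ducts and portal vessels. They were sorted by their red tdTomato reporter (Clec3b-tdT+) from livers of Clec3bCreERT2;R26tdT mice, in which a tamoxifen-inducible Cre under the control of Clec3b switches the reporter on. Data came from 1 KLF4 ChIP library and 1 input library, and the cells of both carried Klf4 overexpressed from a lentivirus, so cells with only their own Klf4 are not among the groups. Neither the number of mice pooled nor their age appears in the labels. A peak list holds no expression values, so the labelled cell type was not checked against its markers. With 1 library on each side no value below has a replicate error, and no test between groups was made.

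KLF4 is a zinc-finger transcription factor that binds GC-rich and CACCC-type elements and can act as an activator or a repressor. In smooth muscle it is known for holding back the contractile gene programme. Noncoding genes are of several kinds. LncRNAs act in the nucleus or the cytoplasm as long transcripts, and microRNAs (miRNAs) lower the output of target mRNAs through their seed bases. Small nuclear and small nucleolar RNAs serve splicing and the modification of other RNAs, while most processed pseudogenes are copies of mRNAs inserted back into the genome without a promoter of their own.

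Of the 12 miRNA genes with a promoter peak, 6 had mature sequences in the RefSeq table of the older build GRCm38.p6. These gave 9 mature miRNAs with 9 distinct seeds, so that no seed was shared among them. The products of Mir21a are shown because this gene lay in the run with the most peaks described below. Bases 2 to 8, the seed, are in capitals.
mmu-miR-21a-5p: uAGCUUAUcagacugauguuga
mmu-miR-21a-3p: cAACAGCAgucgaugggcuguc
The products of Mir101b and Mir101c are shown because these genes are close relatives that lay in opposite kinds of surroundings, one in ordinary and one in high background. The run of 14 bases that both sequences share is in capitals.
mmu-miR-101b-3p: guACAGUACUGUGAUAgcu
mmu-miR-101c: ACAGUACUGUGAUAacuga
Because the shared run starts at base 3 of miR-101b-3p and at base 1 of miR-101c in this table, the seeds of the 2 entries differ by position although the sequences match.

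At Lncpint, a p53-induced lncRNA gene, a peak spanned a TSS, and its promoter is shown for that reason. The peak covered chr6:31195373-31195461 on GRCm39, the build of the peak list, which is from 52 bases upstream to 36 bases downstream of the start of a transcript spanning 124916 bp. The RefSeq gene on GRCm38.p6 spans 124912 bp, and whether both annotations share a start was not checked across builds. The RefSeq sequence is the minus strand of chr6:31218425-31218724 on GRCm38.p6, from 250 bases before the RefSeq start to 50 after it. In capitals is the 1 match to GGGTGG, a core of KLF-family sites.
Lncpint: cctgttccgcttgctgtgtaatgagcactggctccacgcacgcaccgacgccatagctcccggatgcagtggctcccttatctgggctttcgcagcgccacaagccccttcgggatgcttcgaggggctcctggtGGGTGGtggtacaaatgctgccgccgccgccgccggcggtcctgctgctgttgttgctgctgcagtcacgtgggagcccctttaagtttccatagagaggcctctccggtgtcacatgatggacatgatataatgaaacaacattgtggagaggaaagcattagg
Both strands were searched for GGGTGG, for the looser KLF pattern GGGNGNGG, whose matches can overlap those of GGGTGG, and for TGANTCA, the site of AP-1 factors. The Lncpint window held 0 matches to GGGNGNGG and 0 to TGANTCA. Over the 27025 genes of the table, with 1 window each, 30.9% of windows held GGGTGG, 49.1% held GGGNGNGG and 7.93% held TGANTCA, so a match to GGGTGG is common in windows of this length. Only 67 of the 308 noncoding genes had a promoter window, so a check of motifs over the whole set was void.

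The noncoding promoter peaks were short and rested on few ChIP fragments, like the rest of the list. Fold enrichment and significance (p and q) are the authors' own values for a peak, and the fold is ChIP over background at the summit. Median width was 217 bp for noncoding promoter peaks, 217 bp for the 543 protein-coding promoter peaks and 201 bp for all peaks. Median fold was 4.59 in each of these sets, with a range of 1.96 to 9.90 at noncoding promoters. The number of ChIP fragments at the summit, recovered from fold and p, was 5 or 6 at 236 noncoding promoter peaks (72.6%), at 404 protein-coding ones (74.4%) and at 3176 of all peaks (75.3%). The fewest at any peak was 5, and 5 fragments on the genome-wide background give a fold of 4.59. The shared median fold is thus the value of a peak with the fewest fragments, and it does not compare enrichment between the sets. High background here means a local background above 10-fold of the 0.307 fragments expected genome-wide. Away from it, 10 or more fragments were held by only 8 noncoding promoter peaks (2.46%). The same was true of 8 protein-coding ones (1.47%) and 73 of all peaks (1.73%). A q under 0.01 was reached by 69 noncoding promoter peaks (21.2%) and 113 protein-coding ones (20.8%), against a background of 17.4% over all peaks. Leaving out peaks in high background gave 54 of 302 (17.9%), 93 of 514 (18.1%) and 602 of 4014 (15.0%). These shares lay near each other and near the background.

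By position, noncoding promoter peaks lay somewhat farther from the TSS than protein-coding ones. Their median distance was 1138 bp (order-statistic interval 1019 to 1322 bp), against 953 bp (827 to 1086 bp) at protein-coding promoters. Within 1 kb lay 142 of the 325 noncoding peaks (43.7%, exact interval 38.2% to 49.3%) and 283 of the 543 protein-coding peaks (52.1%, 47.8% to 56.4%). Peaks that spanned the TSS itself numbered 19 at noncoding promoters (5.85%, 3.56% to 8.98%) and 64 at protein-coding ones (11.8%, 9.20% to 14.8%). Upstream of the TSS lay 135 noncoding promoter peaks (41.5%, 36.1% to 47.1%) and 258 protein-coding ones (47.5%, 43.2% to 51.8%), against 47.2% of all peaks. Downstream lay 171 noncoding (52.6%, 47.0% to 58.2%) and 221 protein-coding ones (40.7%, 36.5% to 45.0%), against 50.9% of all peaks. The intervals for the shares within 1 kb and upstream overlap, and those for spanning and downstream peaks do not. They treat peaks as independent, and a test of the difference was not made.

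The classes differed among themselves in distance. LncRNA promoters had 78 of 152 peaks within 1 kb (51.3%, exact interval 43.1% to 59.5%), and small RNA genes had 27 of 57 (47.4%, 34.0% to 61.0%). Pseudogenes had 27 of 86 (31.4%, 21.8% to 42.3%) and TEC loci 8 of 26 (30.8%, 14.3% to 51.8%). A peak spanned the TSS at 13 lncRNA promoters, 4 small RNA promoters, 1 pseudogene and 1 TEC locus. Processed pseudogenes, the largest pseudogene biotype with 71 peaks, had 20 peaks up to 1 kb, 22 at 1 to 2 kb and 29 at 2 to 3 kb, and 0 spanning the TSS. So the lncRNA promoters had about the same share of near peaks as protein-coding ones, and the lower share over all noncoding promoters went with the pseudogenes and the TEC loci. These distances are to the nearest annotated transcript, which can be a short one. Of 82 lncRNA promoter peaks matched to a RefSeq gene, 23 were placed by a transcript under 50% of the RefSeq span. Distances to full-length starts were not measured.

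**Figure D1:**
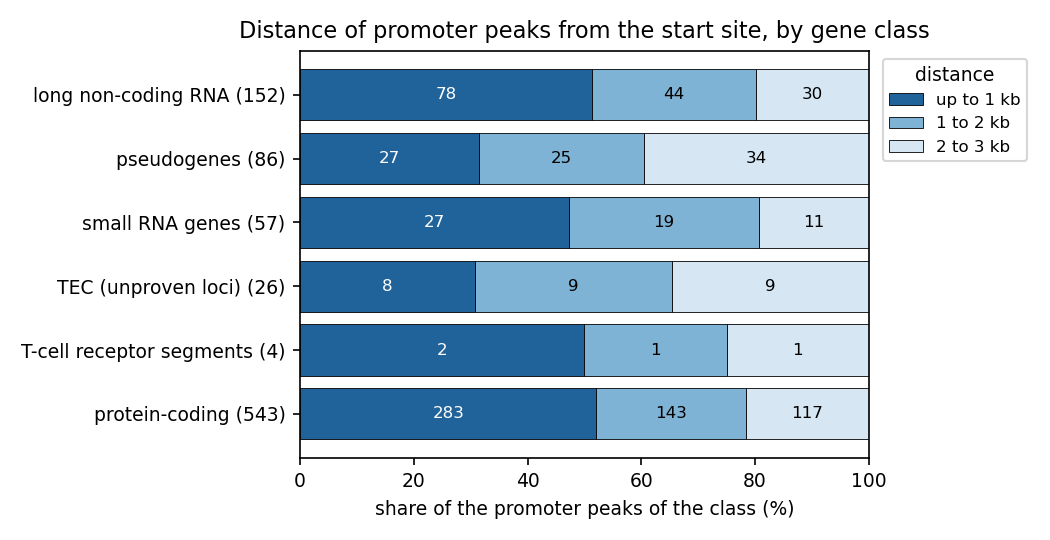
Share of the promoter peaks of each gene class (x axis, %) that lay up to 1 kb, 1 to 2 kb or 2 to 3 kb from the start site, with the number of peaks printed in each bar and the class total beside its name. LncRNA and protein-coding promoters had 51.3% and 52.1% of their peaks within 1 kb, against 31.4% at pseudogenes.

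Promoter peaks were 10.1% to 17.8% of the peaks assigned to the 3 main noncoding classes, against 29.3% for protein-coding genes, a difference that was not tested. Of the 856 peaks assigned to lncRNA genes, 17.8% (exact interval 15.3% to 20.5%) were promoter peaks, as were 13.9% (10.7% to 17.7%) of the 409 at small RNA genes and 10.1% (8.17% to 12.3%) of the 850 at pseudogenes. Among the 1856 peaks of protein-coding genes the share was 29.3% (27.2% to 31.4%). These shares also depend on how many start sites each class has and on how far apart they lie, which was not measured. The promoter limit of 3 kb passed through a continuous range of distances. Just inside it were Lncpint at 2982 bp, Lncppara at 2981 bp and Gm11738 at -2971 bp (a minus sign means upstream), with folds of 5.14, 5.19 and 4.57. Just outside were Gm45873 at -3014 bp, Gm4766 at 3021 bp and Gm37281 at 3025 bp, with folds of 4.62, 4.59 and 4.53.

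The strongest noncoding promoter peaks outside the high-background stretches were mostly at processed pseudogenes, which held 7 of the first 11 by fold, the last 3 of them tied at 6.12. This biotype held 71 of the 325 noncoding promoter peaks (21.8%) and 788 of all 4216 peaks. As a whole it was not stronger. Its median fold was 4.59, and 16 of its 71 peaks had a q under 0.01 (22.5%), against 21.2% of all 325. Gm8357 led the 11 with a peak of 97 bp on chromosome 1, 75 bp upstream of its start. There 25 ChIP fragments stood against a background of 1.63 fragments (fold 9.90, q = 1.79e-16). That background was 5.29 times the genome-wide one. At Gm15602 on chromosome 3, 13 ChIP fragments stood against 0.523 (fold 9.19, q = 4.90e-10), in a peak 1635 bp upstream. Gm48736 and Gm5619, both on chromosome 9, had the same 9 fragments against 0.551 and a fold of 6.45. Gm29608 had a fold of 6.37 and Gm8783 and Gm8805 had 6.12 each. Sequence of processed pseudogenes resembles that of their parent genes, so reads may be shared between them, and no source used here says how such reads were counted.

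The other 4 of these 11 were Gm55523, a misc_RNA gene, Vmn2r-ps34, a pseudogene of a vomeronasal receptor, and the lncRNA genes Gm9975 and Gm28872. Vmn2r-ps34 had 9 ChIP fragments against a background of 0.399 (fold 7.15, q = 6.46e-06), 2608 bp downstream of its start on chromosome 6. Pseudogenes of receptors with intact relatives also included the olfactory Or5w9-ps1 (fold 5.35, 143 bp upstream) and Or2a53-ps1 (5.30, 241 bp upstream), both named after their values were seen. Gm55523 and Gm9975 each belonged to a run of peaks, described next.

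**Figure D2:**
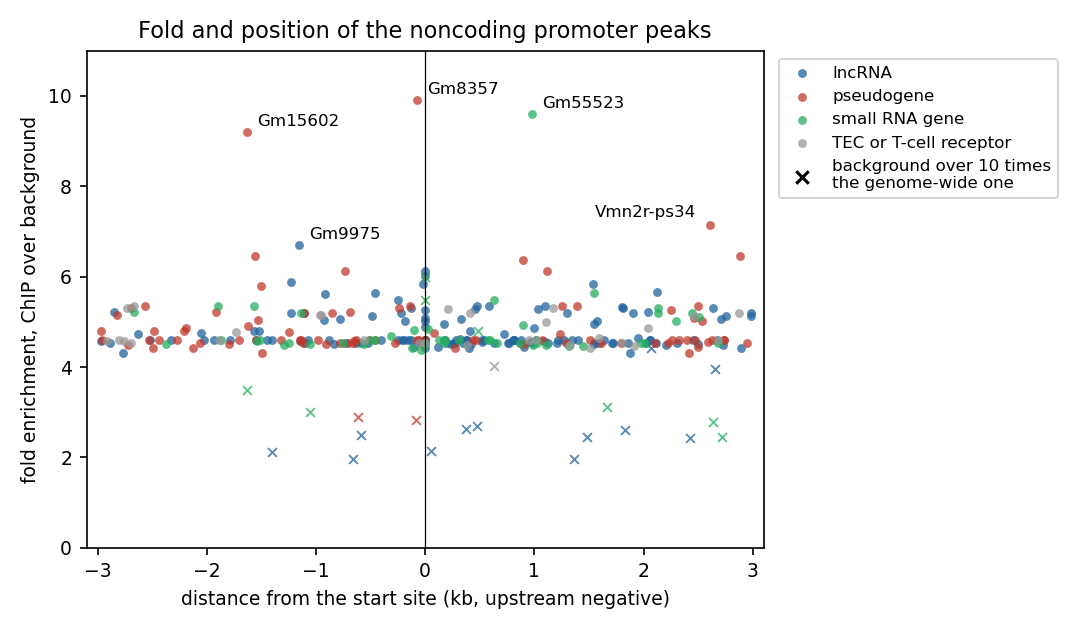
Fold enrichment of each of the 325 noncoding promoter peaks (y axis) against its signed distance from the start site (x axis, kb), coloured by gene class. Most lie near a fold of 4.59 at every distance, which is the value of 5 ChIP fragments on the genome-wide background. Crosses mark peaks whose background exceeded 10 times the genome-wide one, and the 5 named peaks reach folds of 6.70 to 9.90.

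Peaks gathered in runs at 3 noncoding loci. Outside high background, runs of 3 or more peaks with gaps of at most 5 kb numbered 5 in the whole list, and 4 of them held a noncoding promoter peak. Of the 5, 2 lay in a stretch of chromosome 9 around Mir101c treated below, and the others were at Mir21a, Malat1 and Gm55523. More generally, 19 of 302 noncoding promoter peaks outside high background had another peak within 5 kb (6.29%, exact interval 3.83% to 9.65%), as had 22 of 514 protein-coding ones (4.28%, 2.70% to 6.41%) and 113 of all 4014 peaks (2.82%, 2.33% to 3.37%). The search for runs was made after the peaks of these loci had been seen. The number of loci depends on the gap limit, since the 3 promoter peaks of Lncpint, described below, fell short of a run by a gap of 5053 bp.

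The run with the most peaks, 5 in 5669 bp of chromosome 11 (86472457 to 86478125), surrounded Mir21a. This gene encodes miR-21, a miRNA that is induced in fibrosis and known for sustaining fibroblast activation, and in the RefSeq table it overlaps the protein-coding gene Vmp1, which has a role in autophagy. One Mir21a peak lay 104 bp upstream of the hairpin, with 6 ChIP fragments against a background of 0.450 (fold 4.83, q = 0.0293). The other lay 1542 bp downstream, with 8 fragments against 0.596 (fold 5.64, q = 0.00234). Beyond it, a peak assigned to Gm9975 had 10 fragments against 0.642 (fold 6.70, q = 3.10e-05), which was the highest fold of any lncRNA promoter peak. On the upstream side, 2 peaks at starts of short Vmp1 transcripts had folds of 5.19 and 4.54. Background at the 5 peaks was 1.46 to 2.09 times the genome-wide one. Hairpin starts are those of the processed stem-loop, so these distances say nothing of where the primary transcript begins.

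Malat1 is a gene for an abundant lncRNA of nuclear speckles. It had 3 promoter peaks within 3255 bp of chromosome 19 (5845064 to 5848318), each with 7 ChIP fragments. Backgrounds were 0.413, 0.734 and 0.596 fragments and folds 5.66, 4.61 and 5.01, with q-values of 0.00225, 0.0475 and 0.0161. The distances of 2120, 321 and -181 bp were taken to starts of transcripts that span 1774 or 2074 bp, whereas the RefSeq gene spans 6983 bp. The 3 peaks were thus placed by short transcripts, and the one at 2120 bp lay past the far end of both. Their position relative to the start of the full-length gene was not measured, so a place at its promoter is not shown.

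On the same chromosome, the misc_RNA gene Gm55523 had the widest peak of the whole list. It covered 3205 bp (5890283 to 5893487), with 19 ChIP fragments against a background of 1.08 (fold 9.60, q = 6.01e-13), beginning 978 bp downstream of the Gm55523 start. Next to it lay peaks of 2028 bp (11 fragments, fold 5.76, q = 0.000414) and 383 bp (6 fragments, fold 4.54, q = 0.0484) which were assigned to Gm55523 as well, at 4279 and 6425 bp, but annotated as exonic in the single exon of another gene (ENSMUSG00000092274), whose name the list does not give. All 3 lay between the peaks of Malat1 and Frmd8os. In the RefSeq table the genes from Malat1 to Frmd8 are Malat1, Mascrna, Neat1 and Frmd8, where Neat1 is the gene for the lncRNA that builds paraspeckles. No peak was assigned to Neat1 by name. Gm55523 itself is a transcript of 152 bp, so this promoter assignment rests on a small gene inside a region with longer ones.

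**Figure D3:**
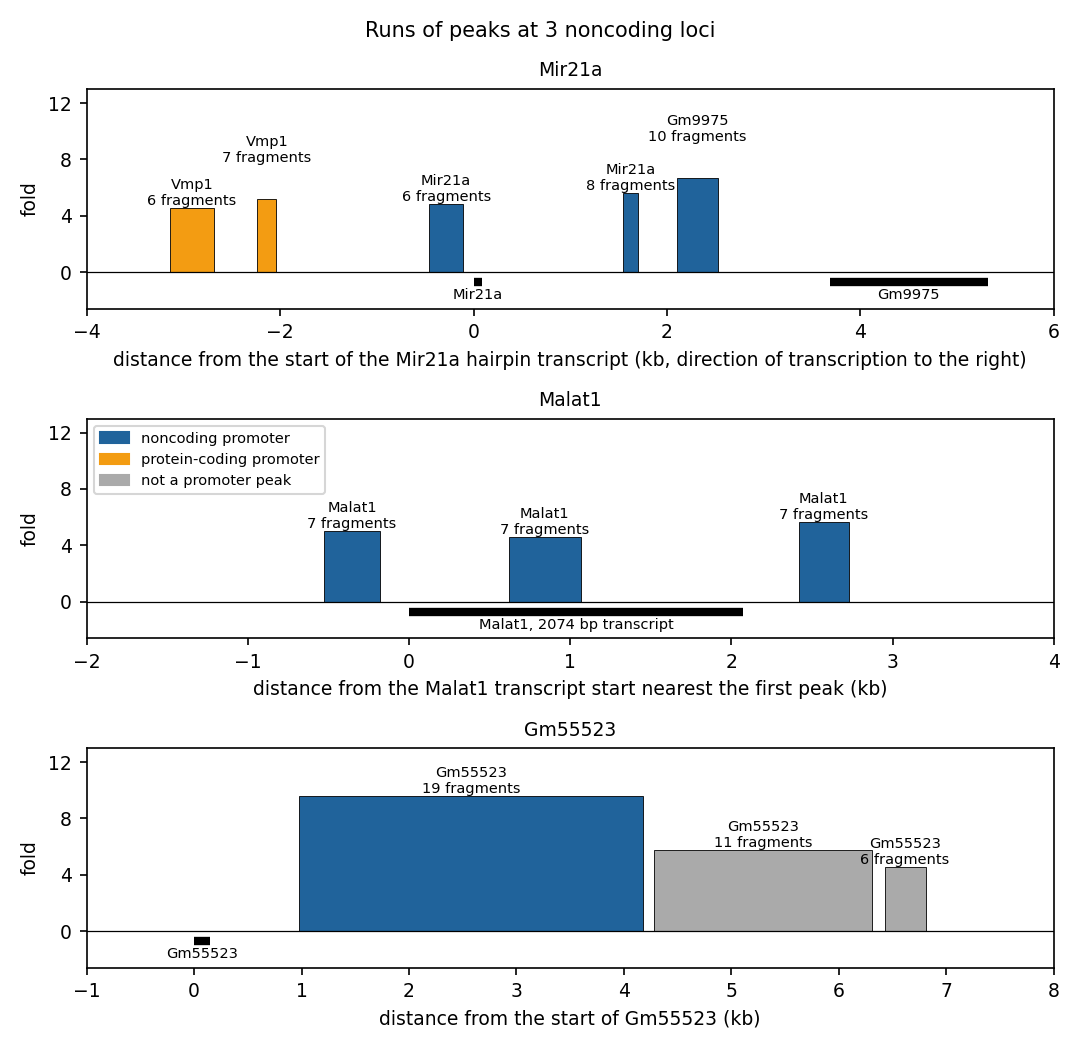
Peaks at Mir21a, Malat1 and Gm55523, drawn as bars whose width is the extent of the peak (x axis, kb from a start site, with transcription to the right) and whose height is the fold enrichment (y axis), with the ChIP fragments of each peak printed above and transcripts as black lines. The 3 runs hold 5, 3 and 3 peaks, and the Gm55523 peak with 19 fragments is the widest, at 3205 bp.

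Lncpint, like Malat1, had 3 promoter peaks. Those on chromosome 6 had 6, 6 and 7 ChIP fragments at 2982, 0 and -919 bp, against backgrounds of 0.362, 0.376 and 0.422, and folds of 5.14, 5.09 and 5.63. The q-values were 0.0104, 0.0113 and 0.00257. Each distance was to a different Lncpint transcript, and 2 further Lncpint peaks lay outside promoters. Dnm3os, antisense to Dnm3 and host of the miR-199a and miR-214 hairpins, had 1 promoter peak with 6 fragments against 0.555, 420 bp downstream of a start (fold 4.50, q = 0.0484). That transcript spanned 2475 bp, against 7928 bp for the RefSeq gene. Sox2ot, which overlaps the pluripotency gene Sox2, had a fold of 4.65, Mettl5os 4.95, Lncppara 5.19, BC030343 5.34 and BC051076 4.80. The Sox2ot peak lay 1948 bp downstream of the start of a transcript of 67 bp, against 117613 bp for the RefSeq gene.

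Of the 30 lncRNA genes listed for roles in fibroblasts, fibrosis or imprinting, Malat1, Lncpint and Dnm3os had promoter peaks (3 of 30, or 10.0%, exact interval 2.11% to 26.5%). Those of Malat1 and Dnm3os rest on transcripts shorter than the RefSeq gene. Among all 12731 lncRNA genes of the RefSeq table, 74 (0.581%) were matched by symbol to a noncoding promoter peak, a share that is too low because only 77 of the 143 lncRNA genes with such a peak matched the table. The list was chosen with earlier results of these peaks known, so its share is not independent of them. Another 2, Epb41l4aos and Pvt1, had peaks only elsewhere. The imprinted H19, Meg3, Kcnq1ot1 and Airn and the X-inactivation genes Xist, Tsix, Jpx and Ftx were, like the smooth muscle gene Carmn, among the 25 with no peak assigned by name. Neat1 is also among these 25, but whether the unnamed gene with 2 exonic peaks beside Gm55523 is Neat1 could not be settled from the files. Of 30 miRNA genes studied in fibroblasts and liver, Mir21a, Mir101b and Mir101c had promoter peaks (3 of 30, or 10.0%), Mir146 had a peak elsewhere only, and 26 had none. All peaks of Mir101c at its promoter lay in the high-background stretch of chromosome 9. Of all 1228 miRNA genes of the RefSeq table, 7 (0.570%) were matched to a promoter peak, out of 12 miRNA genes with one, and the limits given for the lncRNA list hold here as well. The 26 included the antifibrotic Mir29 genes, the smooth muscle genes Mir143 and Mir145a, and the hepatocyte gene Mir122. At this depth a missing peak does not show that binding was absent.

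LncRNA promoters with a peak across the TSS numbered 13. Gm28872 on chromosome 4 had the highest fold of these, with 7 ChIP fragments against a background of 0.307 (fold 6.12, q = 0.000339). Gm38563 on chromosome 15 had 9 against 0.665 (fold 6.01, q = 0.000503), and Gm2682, also on chromosome 15, had 6 against 0.330 (fold 5.26, q = 0.0064). Lncpint followed at 5.09. The remaining 9 had folds of 4.42 to 5.01. The first 2 of these genes were placed by short transcripts. That of Gm28872 spanned 158 bp, without a RefSeq match, and that of Gm38563 spanned 1402 bp, against 9807 bp for the RefSeq gene. Those of Gm2682 and Lncpint spanned 66572 and 124916 bp.

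Small RNA promoters held 57 peaks at 49 genes: 16 at miRNA, 14 at small nuclear RNA (snRNA), 10 at small nucleolar RNA (snoRNA), 9 at ribosomal RNA (rRNA), 7 at misc_RNA genes and 1 at a small Cajal body RNA gene. MiRNA genes had 10 of 16 peaks within 1 kb. Besides Mir21a these included Mir383, with 8 ChIP fragments against 0.918 at 310 bp upstream (fold 4.69, q = 0.0324). Mir101b, which in the RefSeq table overlaps the coding gene Rcl1, had 7 fragments against 0.596 at 2294 bp downstream (fold 5.01, q = 0.0161). By the same table Mir383 overlaps Sgcz and Mir1931, with 2 peaks and named after its values were seen, overlaps Cdk17. Genes for small RNAs often lie inside introns of coding genes, and such peaks could equally be described by their host gene.

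Rnu1a1, a gene for the U1 RNA of the spliceosome, had 8 fragments against 0.642 at 627 bp (fold 5.48, q = 0.00406). The snRNA gene Gm22203 had a peak across its start with 31 fragments against 4.34 (fold 5.997, q = 1.00e-11), at 14.1 times the genome-wide background. A q under 0.01 was reached by 0 of the 10 snoRNA peaks (exact interval 0% to 30.8%), an interval that includes the 17.4% over all peaks. They included Gm22915 (fold 5.19), Gm24790 (4.59), Snord104, whose peak spanned the gene start (4.48), and Snord14e, which overlaps the chaperone gene Hspa8 in the RefSeq table (4.54). The last and Snord104 were named after their values were seen. Copies of snRNA, rRNA and snoRNA genes are near-identical in many places, so the gene to which such a peak belongs is uncertain.

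The rRNA-related gene Rn18s-rs5 on chromosome 17 had 3 peaks. Across its start 61 ChIP fragments stood against a background of 10.3 (fold 5.49, q = 1.23e-21). The peaks at -1636 and 1664 bp had 16 fragments against 3.85 (fold 3.50) and 41 against 12.5 (fold 3.12). Background here was 12.5 to 40.6 times the genome-wide one. RefSeq lists this gene as a pseudogene. Among the other rRNA genes, Gm56310 had a fold of 5.23, Gm55468 4.92 and Gm55977 2 peaks, of which the higher had 4.84.

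T-cell receptor segments had 5 peaks, counting the pseudogene segment Trbv9 with the 4 segments labelled as genes. Trbv9 had 8 ChIP fragments (fold 5.22, q = 0.00765), and Trbv16, Trbv20, Traj33 and Trav4-4-dv10 had 5 or 6 and folds of 4.48 to 4.59. They were described after their values were seen.

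Some noncoding promoter peaks lay where the input itself was high. Of the 325, 17 (5.23%) were inside the 2 stretches marked for high input background, 14 on chromosome 10 (116987721 to 117626313) and 3 on chromosome 9 (2999999 to 3038262). The same stretches held 24 of the 543 protein-coding promoter peaks (4.42%) and 134 of all 4216 peaks (3.18%). The median fold of the 17 noncoding promoter peaks was 2.62, from a median of 44 ChIP fragments at 49.4 times the genome-wide background. The 14 on chromosome 10 lay at Gm48903 (3 peaks, folds 1.96, 2.45 and 2.62), Gm32235, Gm56970 and the snRNA gene Gm25709 (2 each), and 5 other genes with 1 each; Gm32235 and Gm56970 are named for their number of peaks. Among these, Gm25709 reached a fold of 3.01, the pseudogene Gm9004 2.83 and an lncRNA gene without a symbol (ENSMUSG00000121624) 3.96. On chromosome 9 all 3 peaks were at Mir101c, with 44, 16 and 35 ChIP fragments against backgrounds of 15.2, 2.202 and 6.50, and folds of 2.78, 5.31 and 4.80.

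A background above that 10-fold limit lay under 23 noncoding promoter peaks (7.08%, exact interval 4.54% to 10.4%), 29 protein-coding ones (5.34%, 3.61% to 7.58%) and 202 of all peaks (4.79%). Outside the 2 stretches there were 7 such noncoding peaks, of which Gm33838, Gm13726 and Gm37929 are named because of their background. The highest was at Gm33838 on chromosome 9, where 474 ChIP fragments stood against a background of 106, which was 346 times the genome-wide one (fold 4.43, q = 9.95e-144). The others were the 3 peaks of Rn18s-rs5, Gm22203, the pseudogene Gm13726 (fold 2.89) and the TEC locus Gm37929 (4.02). A q under 1e-05 was reached by 10 noncoding promoter peaks (3.08%), against 2.73% over all peaks. Of these 10, 4 lay outside high background, at Gm8357, Gm55523, Gm15602 and Vmn2r-ps34, as did 38 of the 115 such peaks in the whole list. Outside high background the shares were 4 of 302 noncoding promoter peaks (1.32%), 6 of 514 protein-coding ones (1.17%) and 38 of all 4014 peaks (0.947%). The part of the background in the noncoding promoter peaks named above was not tested.

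**Figure D4:**
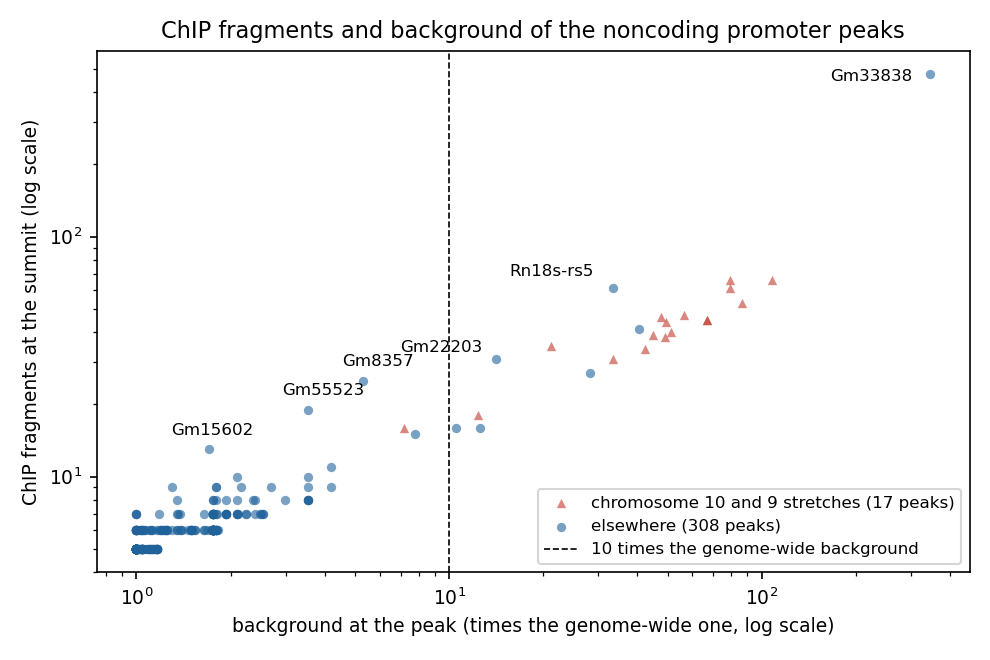
ChIP fragments at the summit of each noncoding promoter peak (y axis, log scale) against the background there in multiples of the genome-wide one (x axis, log scale), with triangles for the 17 peaks in the stretches of chromosomes 10 and 9 and circles for the 308 elsewhere. Most peaks sit at 5 to 7 fragments and low background, and left of the dashed line at 10 times the highest are Gm8357 with 25 fragments and Gm55523 with 19.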

How the data were processed

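Chromatin of sorted portal fibroblasts with lentiviral Klf4 was immunoprecipitated with a KLF4 antibody, per the labels' protocols, and 1 ChIP and 1 input library were compared. The labels also name a control IgG precipitation, not analysed here. MACS2 2.2.7.1 (a peak caller), ChIPseeker 1.44.0 (a peak annotator), Bowtie2 2.4.2 (an aligner) and the build GRCm39 (mm39) are named in the submitters' processing notes, without roles or order. Read totals were not used here and no source used states settings. The deposited list holds each peak's fold, a linear ratio with 1 added to ChIP and background, its p-value and q-value as the authors gave them, the deposited −log10 of both, and the nearest transcript, biotype and distance. Distances of all 4216 peaks equalled those recomputed from the listed coordinates.

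ChIP fragments and background were recovered as the whole-number height that reproduced fold and Poisson p. All 4216 peaks fitted within 0.001 of the −log10 p. The step was also tested on simulated peaks, whose heights and ratios to background did not cover the whole range of the list. The 2 high-background stretches were given with the choice of peaks. Shares carry 95% Clopper-Pearson intervals and no test was run. Members and lists were chosen with earlier results of these data known. Named were the 10 highest folds (with a gene tied at the tenth), small RNA genes (up to 20), up to 10 lncRNAs with a symbol, listed genes, the 5 highest spanning a TSS, the 5 genes with most peaks and 5 in the stretches. Others are marked. Symbols of 174 of 308 genes matched the RefSeq table (GRCm38.p6), used for names, overlaps and sequences, so shares over the set were void and are not given. Alternatives were other q limits, a promoter limit of 1 kb, nuclear chromosomes, no stretches, 1 peak per gene and fewer biotypes. Computation was in Python 3.11.15 with scipy 1.17.1 (intervals), pandas 2.3.3 and numpy 2.4.6 (tables), and matplotlib 3.10.9 (plots).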

Additional observations from a re-analysis of the deposited data

How the results depend on the processing

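The noncoding share of promoter peaks, the share within 1 kb, the lncRNA share, the median fold and the share with a q under 0.01 were recomputed under 8 alternatives, of which leaving out peaks over 10 times the genome-wide background was chosen after seeing the data. Of 37 values, 28 stayed within the 95% interval of the reported value and 9 did not. With promoters up to 1 kb the noncoding share of promoter peaks was 33.4% and the lncRNA share 54.9%. Without TEC loci and pseudogenes the noncoding share was 24.5%, the share within 1 kb 50.2% and the lncRNA share 71.4%, which follows from the fewer classes counted. A q under 1e-05 left 10 peaks, with 6 of them (60%) within 1 kb, an lncRNA share of 20.0% and a median fold of 5.74. With a q under 0.01 the median fold was 5.35, as q and fold come from the same fragments. Nuclear chromosomes only, 1 peak per gene, and leaving out the stretches or all peaks in high background moved none of the 5 values outside its interval. For nuclear chromosomes this was largely fixed in advance. As 0 of the 325 peaks lay on contigs, chromosome Y or the mitochondrial genome, only the noncoding share of promoter peaks could change. The interval of the median fold ran from 4.59 to 4.59 because of ties, so a median that stayed shows only the tie. A peak of 5 or 6 fragments sits at the calling limit, so at this depth weaker binding was not detectable.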

Other observations

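Chromosome X carried few of these peaks. It held 1 of the 325 noncoding promoter peaks (0.308%, exact interval 0.00779% to 1.70%), 3 of the 543 protein-coding promoter peaks (0.552%, 0.114% to 1.61%) and 77 of all 4216 peaks (1.83%). Contigs, chromosome Y and the mitochondrial genome together held 0 noncoding promoter peaks, 1 protein-coding promoter peak and 19 of all peaks. The share that chromosome X has of noncoding start sites was not measured.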
